A study of Mus musculus with 8 samples.

Results

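ADAMTS proteases are secreted zinc metalloproteases that carry thrombospondin type 1 repeats and cut proteins of the extracellular matrix. Through the matrix they remodel around growing epithelia, they are known for roles in branching organs, in cartilage and in connective tissue. Adamts18 is known as a gene of the branching tips of embryonic kidney and lung, and Adamts16 is its closest relative in the family. The results here cover 8 genes of the family, namely Adamts18, Adamts16, Adamts1, Adamts2, Adamts5, Adamts9, Adamts10 and Adamts20. They were chosen by name with their ratios in these data already known, so the ratios below are a description and no test is given for a single member. The members are the non-control probes of a two-colour Agilent array whose RefSeq accession maps to 1 of these genes, which gave 15 of 41174 probes. Adamts18 had 1 probe and each of the other 7 genes had 2.

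RNA came from whole kidneys of E13.5 mouse embryos on a mixed CD1 and C57BL/6 background, microdissected from timed pregnancies. One group was wild type and the other was labelled mutant (UB HDAC1, 2-/-), a label for a knockout of 2 histone deacetylases, HDAC1 and HDAC2, in the branching epithelium of the kidney, the ureteric bud (UB). The Cre driver, and whether embryos were pooled, are not given in the sources used here. Each of 4 biological replicates paired 1 mutant with 1 wild type RNA on 2 arrays with the dyes exchanged, which makes 8 arrays. Slide 1 carried replicates 1 and 2, and slide 2 carried the others. Nothing states whether replicates were separate litters, so the spread between them may be partly technical. Whole-kidney RNA also holds the transcripts of cells outside the bud, and fewer cells of a type cannot be told apart from less RNA per cell.

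All ratios are log2 values, with the labelled mutant as numerator and the labelled wild type as denominator, averaged over both dye orientations of a replicate. Their direction rests on the dye labels and is opposite in sign to the authors' deposited table. In the authors' deposited table Adamts18 stood at 0.799, Adamts1 at 0.542, Adamts10 at 0.541 and Adamts2 at -0.542, each within 0.01 of a scanner mean with its sign turned. Of the 496 entries of the authors' deposited table, 416 equalled the sign-turned scanner mean within 0.01 and 0 equalled it as labelled. The table does not say which genotype is over which, so every direction below would turn if it is written as mutant over wild type. Hdac2, one of the deleted genes, did not settle the labels either. Its ratios were 0.60, 0.60, 0.74 and -0.61 in replicates 1 to 4, with a mean of 0.33 ± 0.63 (SD, n = 4). Replicate 4 alone was below 0. Tissue markers were present, well above background in the labelled wild type RNA on 8 of 8 arrays. These were all 14 bud tip genes, 12 bud stalk and epithelial genes, 8 nephron progenitor genes and 9 stromal genes examined.

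The upstream sequences of 3 members are shown because, at the brightest probe of each gene, these genes had the mean ratios farthest from 0: Adamts18 and Adamts1 below it, and Adamts2 above it. The dimmer probe of Adamts10 was as far from 0 as Adamts1 and Adamts2. Each run holds the 250 bases before the RefSeq start (build GRCm38.p6) on the gene's own strand, 5′ to 3′. Capitals mark TATAAA, the core of a TATA box, and GGGCGG, the core of a GC box, on either strand (TTTATA and CCGCCC in reverse).
Adamts18, chr8:113848840-113849089, minus strand: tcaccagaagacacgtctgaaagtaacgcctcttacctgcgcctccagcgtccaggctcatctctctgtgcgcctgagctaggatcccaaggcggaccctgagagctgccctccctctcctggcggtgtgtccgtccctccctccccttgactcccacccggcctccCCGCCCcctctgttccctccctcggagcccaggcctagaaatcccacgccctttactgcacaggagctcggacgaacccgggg
Adamts1, chr16:85803114-85803363, minus strand: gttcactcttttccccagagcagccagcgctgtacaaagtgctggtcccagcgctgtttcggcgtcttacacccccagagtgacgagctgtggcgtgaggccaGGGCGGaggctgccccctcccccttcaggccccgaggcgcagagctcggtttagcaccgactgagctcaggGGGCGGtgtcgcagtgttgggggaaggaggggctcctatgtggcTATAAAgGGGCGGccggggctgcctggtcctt
Adamts2, chr11:50601835-50602084, plus strand: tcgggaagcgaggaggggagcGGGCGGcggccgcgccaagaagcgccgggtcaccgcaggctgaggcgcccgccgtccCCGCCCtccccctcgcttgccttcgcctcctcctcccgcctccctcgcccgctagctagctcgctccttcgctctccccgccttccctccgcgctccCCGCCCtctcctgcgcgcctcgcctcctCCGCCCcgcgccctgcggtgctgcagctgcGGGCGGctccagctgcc

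The window of Adamts18 held 1 GC box core and no TATAAA. That of Adamts1 held 3 GC box cores and 1 TATAAA, which began 32 bases before the start and lay next to a GC box core without overlapping it. That of Adamts2 held 5 GC box cores. Over 32851 RefSeq promoters with windows of the same length, 32.74% held GGGCGG and 12.37% held TATAAA on either strand. The windows held 15 CpG in Adamts18, 15 in Adamts1 and 34 in Adamts2, against a median of 6.0 over all promoters. Among all promoters these counts stood at percentiles 72.7, 72.7 and 96.5. CACGTG, the core of an E-box, and CGGAAG, an ETS-type motif, were in none of the 3 windows, while 6.02% and 13.59% of all promoters held them. These matches describe letters only, and no data here bear on binding.

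Adamts18 was lower in the RNA labelled mutant in every replicate and on every array. Its ratios were -0.77, -0.79, -0.90 and -0.73 in replicates 1 to 4, so the 4 replicates lay close together. The mean was -0.80 ± 0.07 (SD, n = 4), a level 1.74-fold lower in the RNA labelled mutant. Of the 39354 probes measured in all 4 replicates, 118 (0.300%) had a mean below that of Adamts18, and 4.08% had a smaller SD. By dye, Cy5 labelling of the mutant RNA gave -0.77, -0.90, -1.20 and -0.97 in replicates 1 to 4, and Cy3 labelling of it gave -0.77, -0.68, -0.60 and -0.50. The mean ratio was thus further from 0 in the Cy5 orientation (-0.96) than in the Cy3 orientation (-0.64), with the same sign in both. With normexp background correction and loess in place of the scanner ratios, the mean was -0.90 ± 0.13.

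The level of Adamts18 in each RNA separated the labelled groups. Levels are log2 processed signals minus the median of all probes of the same RNA, averaged over both dyes. In the RNAs labelled wild type Adamts18 stood at 2.90, 2.70, 2.82 and 2.59 in replicates 1 to 4. In the RNAs labelled mutant it stood at 2.13, 1.92, 1.92 and 1.85. The lowest wild type RNA lay above the highest mutant RNA, so the groups did not overlap. The means were 2.75 ± 0.14 and 1.95 ± 0.12 (SD, n = 4 each).

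**Figure D1:**
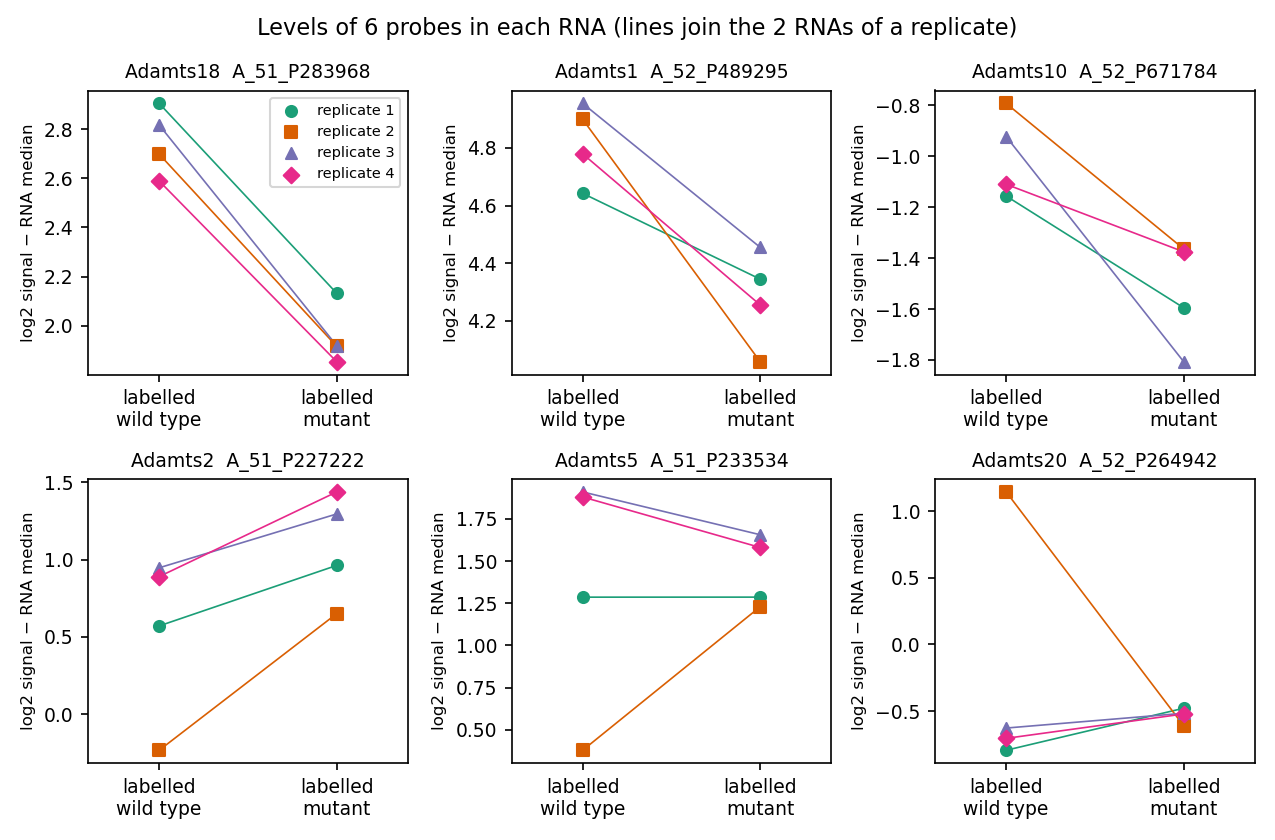
Levels of 6 member probes (log2 processed signal minus the median of all probes of that RNA, vertical axes not starting at 0 and differing between panels) in the 4 RNAs labelled wild type and the 4 labelled mutant, with a line joining the RNAs of a replicate. Adamts18 is lower in the labelled mutant RNA of all 4 replicates (1.85 to 2.13 against 2.59 to 2.90), and the wild type RNA of replicate 2 stands apart in Adamts20 at 1.14.

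The relative Adamts16 gave different ratios at its 2 probes. Probe A_52_P452660 stood at -0.05, -0.14, -0.14 and 0.09 in replicates 1 to 4, a mean of -0.06 ± 0.11 (SD, n = 4), so it lay around 0. Probe A_52_P424231, on average the brighter of the 2, stood at 0.46, 0.46 and 0.53 in replicates 1, 3 and 4. Its mean was 0.48 ± 0.04 (SD, n = 3). Its replicate 2 was left out because the scanner software called 1 of its spots an outlier there. The array that remained in replicate 2 gave 0.80, and with the outlying spot kept replicate 2 came to -0.02 and the mean to 0.35 ± 0.25. The probes differed by 0.50, 0.59 and 0.44 in replicates 1, 3 and 4, so neither probe alone gives the direction of Adamts16.

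Adamts1, which cuts the proteoglycans versican and aggrecan and is known to be needed for normal kidney and ureter structure, was below 0 at both probes in 4 of 4 replicates. The brighter probe, A_52_P489295, stood at -0.30, -0.85, -0.50 and -0.52 in replicates 1 to 4. Its mean was -0.54 ± 0.23 (SD, n = 4), and the ratio was below 0 on 8 of 8 arrays. Its levels in the RNAs labelled mutant, 4.34, 4.06, 4.45 and 4.26, all lay under those in the RNAs labelled wild type, which ran from 4.64 to 4.95 with replicate 1 the lowest. The dimmer probe, A_52_P213932, stood at -0.33, -0.10, -0.72 and -0.81, a mean of -0.49 ± 0.33. On this probe replicate 2 was the nearest to 0, while on the brighter probe it was the farthest. In the RefSeq gene table Adamts1 and Adamts5 are direct neighbours on chromosome 16.

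Adamts10, a protease linked to fibrillin microfibrils, was also below 0 at both probes in 4 of 4 replicates. Probe A_51_P175069 stood at -0.43, -0.15, -0.73 and -0.16 in replicates 1 to 4, a mean of -0.37 ± 0.27 (SD, n = 4). Probe A_52_P671784 stood at -0.44, -0.58, -0.89 and -0.26, a mean of -0.54 ± 0.26, and its labelled groups did not overlap in level. Replicate 3 was the lowest on both probes. With normexp and loess the means were closer to 0, at -0.19 ± 0.19 and -0.29 ± 0.09. By dye, A_52_P671784 averaged -0.80 with the labelled mutant in Cy5 and -0.29 with it in Cy3.

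Adamts2, which removes the amino-terminal propeptide of fibrillar procollagens, was the member with the highest ratio, at 1 of its 2 probes. Probe A_51_P227222 stood at 0.39, 0.87, 0.35 and 0.55 in replicates 1 to 4, a mean of 0.54 ± 0.24 (SD, n = 4), above 0 on 8 of 8 arrays. Its levels still overlapped between the groups, from 0.65 to 1.44 in the RNAs labelled mutant and from -0.23 to 0.95 in those labelled wild type, because each replicate had its own level. Its mean depended on the dye, at 0.29 with the labelled mutant in Cy5 and 0.79 with it in Cy3. Probe A_52_P184042 of the same accession stood at 0.04, 0.13, -0.02 and -0.11, a mean of 0.01 ± 0.10. The probes differed by 0.35, 0.75, 0.36 and 0.66 in replicates 1 to 4, with 1 sign throughout, so the array does not give a single ratio for Adamts2.

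Adamts5, a protease of aggrecan and versican, rested on replicate 2. Its brighter probe, A_51_P233534, stood at 0.00, 0.84, -0.26 and -0.30 in replicates 1 to 4, a mean of 0.07 ± 0.53 (SD, n = 4) that turned to -0.18 ± 0.16 without replicate 2. In the RNA labelled wild type of replicate 2 this probe stood at 0.38, under the 1.29, 1.91 and 1.88 of replicates 1, 3 and 4. The dimmer probe, A_52_P70231, stood at -0.21, 0.03, -0.26 and -0.36, a mean of -0.20 ± 0.17. It was not well above background on 1 array of replicate 2 in either channel, where the scanner ratio is 0.

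Adamts20, which cuts versican and is known from pigment cell and palate development, had a large ratio in replicate 2 alone. Probe A_52_P264942 stood at 0.32, -1.76, 0.11 and 0.18 in replicates 1 to 4, a mean of -0.29 ± 0.99 (SD, n = 4), or 0.20 ± 0.11 without replicate 2. Both arrays of replicate 2 showed it, at -1.42 and -2.11. The level in the RNA labelled wild type of replicate 2 was 1.14, against -0.79, -0.63 and -0.70 in the others, while the 4 RNAs labelled mutant lay between -0.61 and -0.48. The other probe, A_52_P406233, did not show this, at 0.08, 0.54, 0.01 and -0.02, a mean of 0.15 ± 0.26.

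Adamts9, the closest relative of Adamts20 and also a versican protease, stood near 0 within its spread at its brighter probe. A_52_P49321 had ratios of -0.40, -0.04, -0.11 and 0.09 in replicates 1 to 4, a mean of -0.11 ± 0.21 (SD, n = 4). The dimmer A_52_P237241 stood at -0.23, -0.76, -0.30 and 0.00, a mean of -0.32 ± 0.32, or -0.18 ± 0.16 without replicate 2. It was not well above background on 1 array of replicate 2 in either channel. Both probes had 3 of 4 replicates below 0.

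**Figure D2:**
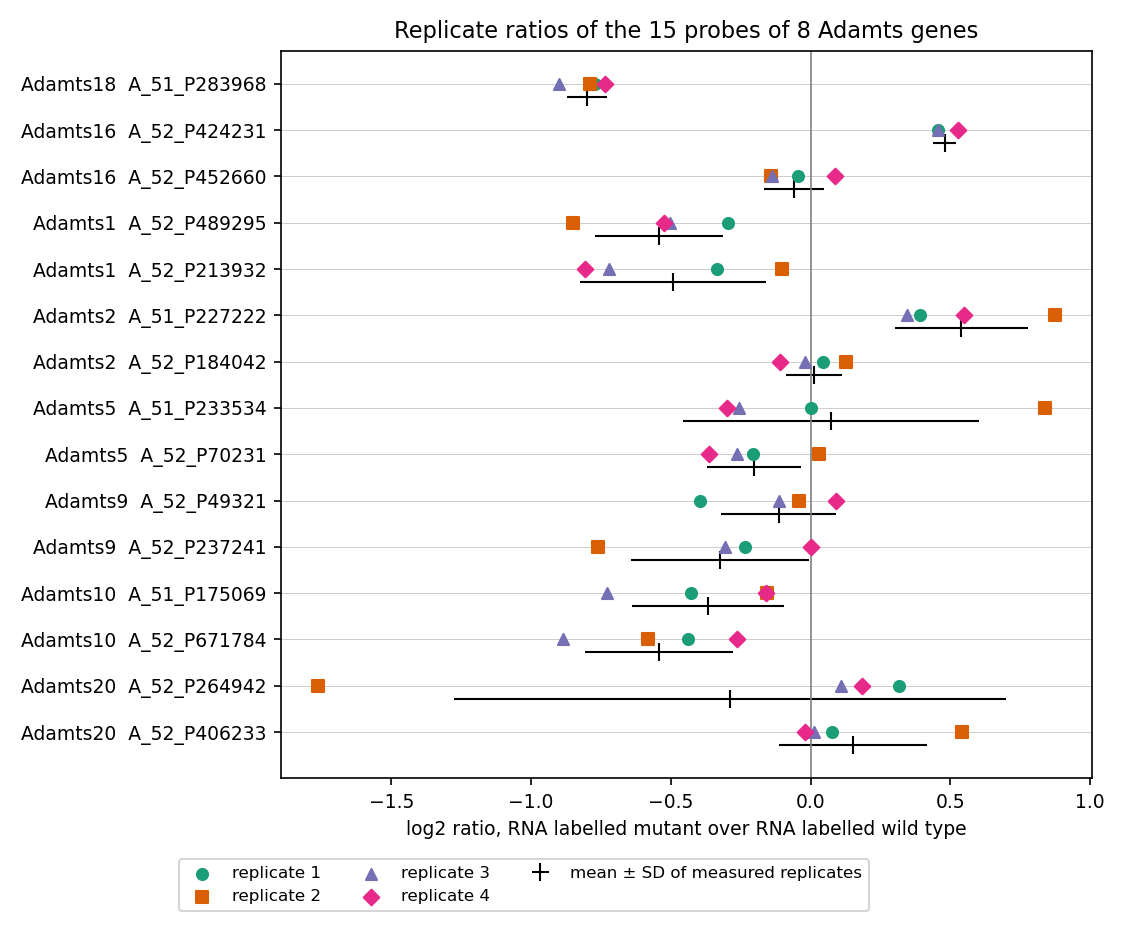
Log2 ratios (labelled mutant over labelled wild type) of the 15 member probes in each of 4 replicates, with the mean and SD of the measured replicates below each row. Adamts18, Adamts1 and Adamts10 lie left of 0 in all replicates, A_51_P227222 of Adamts2 lies right of 0, and replicate 2 of Adamts20 stands alone at -1.76.

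Across the family, 6 of the 8 genes had a brightest fully measured probe below 0 and 2 above it, with a median of -0.20 against 0.04 over all 17070 named genes. For Adamts16, counted below 0, this passed over its brighter probe, which lacked replicate 2 and had a mean of 0.48. Without replicate 2, and with the same probe kept for each gene, the count was again 6, but Adamts5 had moved below 0 and Adamts20 above it. That count still passed over the brighter Adamts16 probe, although it was measured in replicates 1, 3 and 4. Of all probes, 46% had a mean below 0. Of the 14 member probes measured in all replicates, 5 were below 0 in 4 of 4 replicates, where 5.66% of all probes were, and 1 was above 0 in 4 of 4, where 10.7% were. Past 1.4-fold with 1 sign in 4 of 4 replicates, the cut that the name of the authors' table gives, 4 member probes were lower (0.94% of all probes) and 1 was higher (0.872%). Over all probes these were 370 lower and 343 higher, or 482 and 281 after centring each array on its median. With normexp and loess, A_52_P213932 of Adamts1 (-0.36), A_52_P671784 of Adamts10 (-0.29) and A_51_P227222 of Adamts2 (0.45) had means within 1.4-fold. Adamts18 (-0.90) and the brighter probe of Adamts1 (-0.63) stayed past it. In level, 4 member probes had labelled groups that did not overlap, all lower (0.684% of all probes), and 0 were higher (0.765%). On 8 of 8 arrays, 2 member probes were below 0 (1.06% of all probes) and 1 was above 0 (2.25%). Since the members were chosen with these ratios known, nothing is read from these shares.

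Over all 39354 probes, limma called 7 (0.0178%) at an adjusted p of 0.05. Calls of single members are not given, since they would test the ratios that the members were chosen with. At an unadjusted p of 0.05, limma gave 1128 probes lower (2.87%) and 1238 higher (3.15%). A fit of the 8 single arrays, with the replicate block, called 133 probes by limma. Weighting each replicate by how closely its ratios followed the mean of the replicates gave 453 calls. The weights were 0.18 for replicate 2 and 4.07 for replicate 3, with 1.19 and 1.15 for replicates 1 and 4.

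The dye orientations of a replicate gave the same sign in 39 of 59 pairs of member arrays. Adamts18, the brighter probe of Adamts1 and A_51_P227222 of Adamts2 had the same sign on 8 of 8 arrays. For A_52_P264942 of Adamts20 the orientations also agreed within each replicate, but the sign differed between replicates. For A_52_P424231 of Adamts16 they agreed in replicates 1, 3 and 4. Across all probes the ratios of both orientations correlated at 0.29, 0.58, 0.22 and 0.46 in replicates 1 to 4, as a description over probes that share their arrays. Among the 7 genes with 2 probes, the probe means differed by a median of 0.27 and had opposite signs in 42.9% of genes. Over 4509 named genes with 2 fully measured probes the median difference was 0.14, with opposite signs in 39.3%.

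**Figure D3:**
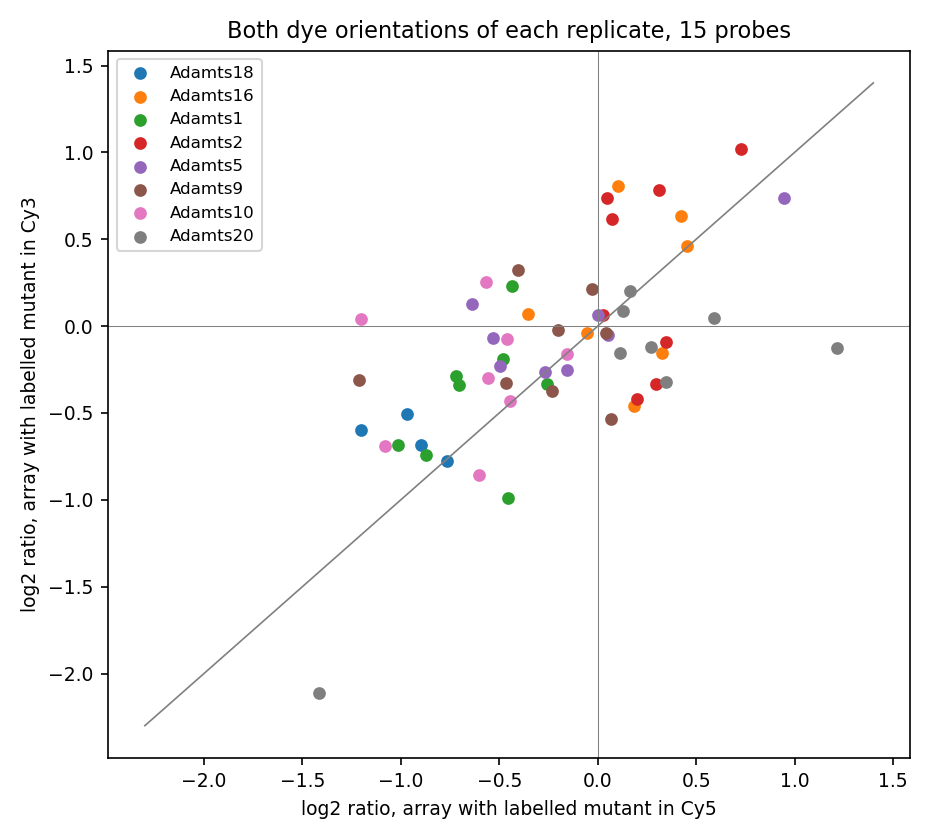
Log2 ratio of each member probe on the array with the labelled mutant in Cy5 (horizontal) against the array of the same replicate with it in Cy3 (vertical), with the line of equality in grey. Points of Adamts18 lie in the lower left, between -1.20 and -0.77 on the horizontal axis, and the lowest point is Adamts20 in replicate 2 at -1.42 and -2.11.

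Other genes of the ADAMTS pathway were counted from lists of genes chosen by function, with earlier results of these data known. Of 9 other measured ADAMTS proteases, 3 were below 0 and 6 above, with a median of 0.07. None was past 1.4-fold with 1 sign in 4 of 4 replicates, and none was called by limma. The largest mean was that of Adamts19 at 0.34 ± 0.43 (SD, n = 4), which came to 0.14 without replicate 2. Without replicate 1 or replicate 2, Adamts15 had the largest mean instead, at 0.38 and 0.21. Of 5 ADAMTS-like proteins, which lack the protease domain, 2 were below 0, led by Thsd4 at -0.47 ± 0.37, or -0.28 without replicate 4. Of 10 inhibitors, activators and modifiers, 4 were below 0, with a median of 0.01, and none was past 1.4-fold with 1 sign. Among them the inhibitor Timp3 stood at 0.01 ± 0.45, the convertase Furin, which activates ADAMTS proenzymes, at 0.15 ± 0.21, and Timp2, the largest change, at -0.25 ± 0.46. Timp2 came to -0.42 without replicate 1 and to -0.05 without replicate 4. No gene of either list was called by limma.

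The transcripts of matrix proteins that these proteases cut or bind were counted together with Has2, which makes hyaluronan. All had mean ratios within 1.4-fold at the brightest probe of each gene. Of these 16 genes, 9 were below 0 and 7 above, with a median of -0.02, and limma called none. Versican (Vcan), a substrate of Adamts1, Adamts5, Adamts9 and Adamts20, stood at 0.06, 0.10, -0.16 and -0.14 in replicates 1 to 4. The procollagen genes Col1a1 and Col1a2, whose products Adamts2 processes, stood at -0.29 ± 0.10 and -0.30 ± 0.35 (SD, n = 4), and Col3a1 at 0.00 ± 0.30. The mean farthest from 0 was that of fibrillin 2 (Fbn2) at -0.31 ± 0.33. Without replicate 4 it came to -0.47, and without replicate 1, 2 or 3 a procollagen gene was farther from 0 than Fbn2. Other probes of Vcan ranged from -0.47 to 0.07, and those of Col1a1 from -0.20 to 0.10. Of 13 other metalloproteases, 5 were below 0, none was past 1.4-fold with 1 sign or called by limma, and the lowest was Adam17 at -0.43 ± 0.21.

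Other genes of the bud tip are set beside Adamts18 as values, with no test of the difference. Of 14 tip genes, 4 were below 0 and 10 above, with a median of 0.07. The receptor Ret stood at -0.05 ± 0.28 (SD, n = 4), its target Etv4 at -0.06 ± 0.34 and the tip ligand Wnt11 at 0.42 ± 0.20. Ret was below 0 in replicate 2 alone, at 0.07, -0.46, 0.11 and 0.08 in replicates 1 to 4. Kcnk1, named after its value was seen, was the 1 tip gene past 1.4-fold with 1 sign, at 0.51 ± 0.19. The tip list averaged between 1.88 and 2.27 in level over the RNAs labelled mutant and between 1.83 and 2.15 over those labelled wild type. Of 12 bud stalk and epithelial genes, 11 were above 0 and 9 were past 1.4-fold with 1 sign, with a median of 0.83, and limma called none. Like the other lists, this list was chosen with earlier results of these data known, so nothing is read from its counts. Its average level was 2.34 to 2.90 in the RNAs labelled mutant and 1.75 to 2.02 in those labelled wild type, and all 12 genes were above background. Most markers of several other cell types lay on the same side of 0 as Adamts18. All 8 nephron progenitor genes were below 0, with a median of -0.16, and 7 of 9 stromal genes were, with a median of -0.13. None of either list was past 1.4-fold with 1 sign. Of 6 macrophage genes, 5 were below 0, with a median of -0.29, and of 5 neuronal and glial genes 4 were, with a median of -0.04. Stmn2 and Ngfr of the last list, named after their values were seen, were the 2 lower genes past 1.4-fold with 1 sign, at -0.71 ± 0.33 and -0.50 ± 0.28 (SD, n = 4). Of 6 erythroid genes 4 were below 0, and of 6 endothelial genes 1 was. The macrophage and endothelial lists each held 1 gene past 1.4-fold higher with 1 sign, Ptprc at 0.53 ± 0.40 and Tek at 0.50 ± 0.46. These 2 were also named after their values were seen. All these counts use the brightest fully measured probe of each gene, and other probes can differ. Other probes of Ptprc averaged from -0.67 to 0.25, that of Ngfr averaged -0.24, and that of the stromal gene Meis1 -0.93. The mean levels of the lists of other cell types overlapped between the labelled groups, with 1 exception. The neuronal and glial list averaged 1.01 to 1.17 in the RNAs labelled mutant and 1.23 to 1.41 in those labelled wild type. The part of cell composition in the ratio of Adamts18 was not tested.

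**Figure D4:**
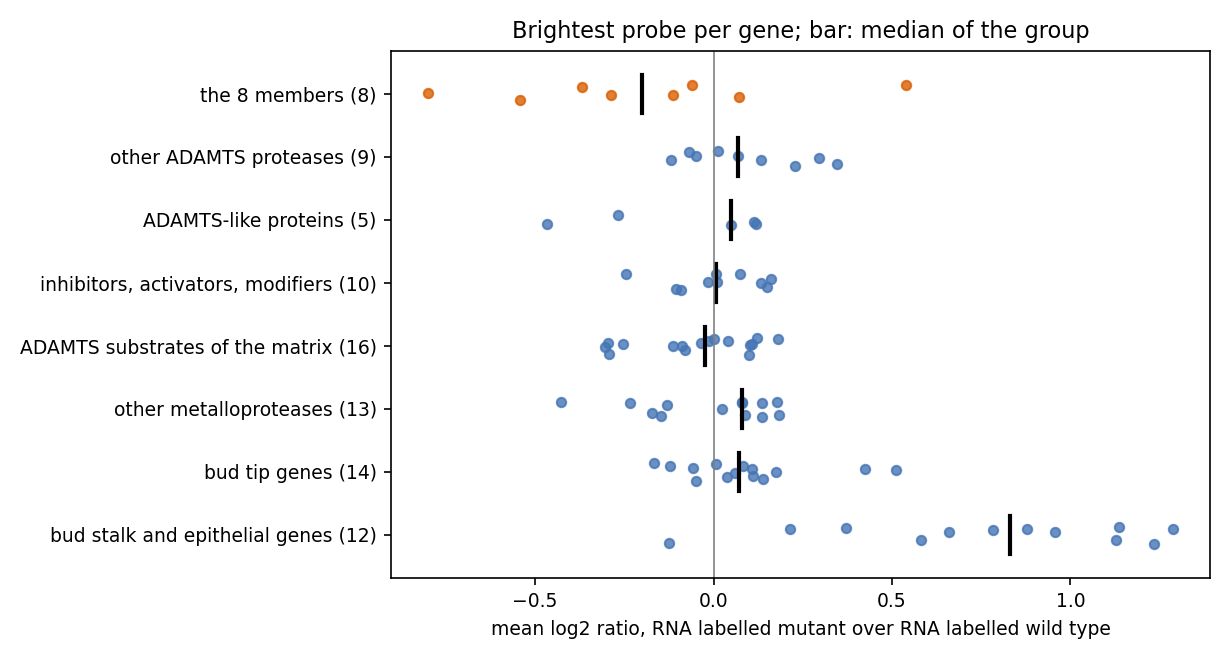
Mean log2 ratio (labelled mutant over labelled wild type) of each gene in the 8 members and 7 gene lists. Values are of the brightest fully measured probe of each gene, with the number of genes in brackets and a bar at each median. Adamts18 at -0.80 is the lowest point plotted and was chosen with that value known. The other ADAMTS proteases lie around 0.07, and the bud stalk and epithelial genes lie around 0.83.

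Probes with a pattern most like Adamts18 were sought by Pearson correlation of levels over the 8 RNAs, among 24691 probes of other named genes. The highest were Ap3b2 (r = 0.96), Prrx1 (r = 0.95), BC048679 (r = 0.95), Cspp1 (r = 0.94) and Baz1b (r = 0.93), and 15 probes were above 0.9. Their mean ratios were -0.27 ± 0.08 for Ap3b2, a subunit of a neuronal adaptor complex, -0.37 ± 0.06 for Prrx1, a homeobox factor of mesenchyme, and -2.90 ± 0.27 for BC048679. Cspp1, a centrosome and cilium protein, stood at -0.85 ± 0.23, and Baz1b, a chromatin remodelling subunit, at -0.71 ± 0.22 (SD, n = 4). These values are of the 1 probe chosen for its likeness. The other probe of Cspp1 averaged -0.08 and that of Baz1b -0.06, and the 3 other probes of Prrx1 averaged from -0.48 to -0.25. Among the members the brighter probe of Adamts1 was most like Adamts18 (r = 0.86), followed by A_52_P671784 of Adamts10 (r = 0.79). These r describe 8 RNAs that share arrays in pairs and both labelled groups.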

How the data were processed

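Two-colour Agilent mouse arrays were scanned and extracted with Feature Extraction 10.5.1.1, per the file headers. The deposited log10 ratio of a spot is red (Cy5) over green (Cy3) processed signal. The deposited intensity columns are processed signals, background-subtracted and dye-normalized per the file headers, and unnormalized median signals. The deposited flags are 0 or 1, in another unit. The authors' deposited table holds log2 ratios.

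Ratios were converted to log2 and turned by the dye labels. Outlier spots were left out, spots of a probe averaged, and the 2 arrays of a replicate, which carry the same RNAs per the labels, averaged to 1 value. That pairing comes from the labels. The filter asked for a signal well above background in 1 channel or both on at least 4 of 8 arrays (39522 of 41174). Of these, 39354 had all replicates and were tested against 0 with limma 3.58.1 in R 4.3.3, two-sided, with Benjamini-Hochberg adjustment at 0.05. The limma step was tested on simulated data. Detection (well above background) ranged per array from 82.1% to 95.9% of spots for labelled mutant RNA and from 79.2% to 97.1% for labelled wild type, and no spot was saturated. The number of replicates, 4, limits the precision. Accessions of 25097 probes matched RefSeq symbols, and the array cites another genome build, so probes are given no positions.

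Members and lists were chosen with earlier results of these data known. Named genes are all members, Hdac2, the largest change of each pathway list without a gene past 1.4-fold, and the 5 probes most like Adamts18. Other genes were named where a result turned on them. Alternatives changed the normalization, centring, filter, dyes, slides, replicates, weights and blocks. Adamts6, Adamts17, Adamtsl3, Adamtsl5, Pcsk5, Pcsk6, B3glct, Adam10, Tll1 and Sox10 are not analysed here.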

Additional observations from a re-analysis of the deposited data

Results flagged for a closer look

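Among 42 groups of 4 values (ratios and levels of the 14 fully measured member probes), 5 held a value far from the other 3 by Dixon's criterion, which flags about 1 in 20 groups by chance. For Adamts20 probe A_52_P264942, the log2 ratio of replicate 2 was -1.76, against 0.11 to 0.32 in the others, and the level of its RNA labelled wild type was 1.14, against -0.79 to -0.63. For Adamts5 probe A_52_P70231, replicate 2 lay at -3.42 in the RNA labelled mutant, against -2.27 to -2.10, and at -3.46 in the RNA labelled wild type, against -1.91 to -1.83. For Adamts16 probe A_52_P452660, the RNA labelled wild type of replicate 1 lay at 0.53, against -0.41 to -0.26. The ratios of these Adamts5 and Adamts16 probes did not stand apart in the same way. For the other Adamts16 probe, A_52_P424231, replicate 2 stood apart at -0.023, against 0.46 to 0.53, when the outlying spot was kept, a group examined in addition to the 42.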

How the results depend on the processing

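The Adamts18 log2 ratio kept its sign under every alternative run. It moved by more than its SD with normexp and loess (-0.90), with the labelled mutant in Cy5 only (-0.96) or in Cy3 only (-0.64), and leaving out each replicate gave -0.82 to -0.77. It was -0.78 within slide 1 and -0.82 within slide 2. With the same probe kept for each gene, leaving out each replicate gave 6 of 8 members below 0 each time. Normexp and loess gave 7 and Cy3 only gave 5. Probes past 1.4-fold with 1 sign numbered 144 lower and 130 higher with normexp and loess, 238 lower with the strict filter, 654 and 539 with Cy5 only, and 757 and 850 with Cy3 only. Leaving out each replicate gave 394 (without replicate 2) to 1447 lower (without replicate 1), and 246 (without replicate 2) to 840 higher (without replicate 4), under a rule of 3 of 3 replicates. Limma called 1 probe with normexp and loess, 2 with no filter, 15 with the strict filter, 1 with Cy5 only, 36 with Cy3 only, 453 with array weights, 29 with the slide as a random block and 2 with the brightest probe per gene. Leaving out a replicate gave 0 (without replicates 1, 3 or 4) to 10 calls (without replicate 2). With the replicate block, at a consensus correlation of 0.30, there were 133 calls, and the Adamts18 ratio was -0.80. The slide block had a consensus correlation of -0.23, where an effect shared by a slide would give a positive value. Keeping outlier spots, added after seeing the data, gave 7 calls. The cause of these changes was not tested.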

Other observations

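Replicate 2 gave the highest or lowest of the 4 ratios at 11 of the 14 fully measured member probes, against 3 for replicate 1, 4 for replicate 3 and 10 for replicate 4. Over all 39354 probes replicate 2 was the extreme value at 77.4%, replicate 1 at 49.3%, replicate 3 at 26.6% and replicate 4 at 46.7%. The ratio of Adamts18 in replicate 2 (-0.79) lay between those of the other replicates.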
